A study of Mus musculus with 8 samples.

Results

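The late granule and maturation genes of neutrophils were followed in mouse bone marrow progenitors labelled Ring1b WT or Ring1b KO. The set holds 10 genes, Ltf, Camp, Ngp, Lcn2, S100a8, S100a9, Mmp8, Mmp9, Cd177 and Pglyrp1, chosen by function and found by symbol among the 17551 symbols of the deposited tables, each as 1 RefSeq transcript. The KO groups were lineage-negative C57BL/6 marrow cells labelled Ring1b KO, exposed to OHT (4-hydroxytamoxifen) for 72 h, in 4 contexts: transduced with HOXA9, with PML-RARa or with MLL-AF9, or labelled NT with no gene introduced. The WT groups were cells of the same contexts labelled Ring1b WT and given ethanol. Loss of Ring1b and exposure to OHT thus cannot be told apart in any context. All groups, WT ones included, carried Ring1a-/- and Cdkn2a-/- alleles. Ring1a and Ring1b are related histone H2A ubiquitin ligases in PRC1, a Polycomb repressive complex, and Cdkn2a encodes the INK4A and ARF tumour suppressors. The labels name no recombinase and no number of animals, and each context and genotype has 1 library. The NT values stand under columns named Empty, which leaves no transduction and an empty vector indistinguishable.

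Neutrophils fill their granules in a fixed order as they mature. Primary granules, with myeloperoxidase and elastase, are filled in promyelocytes. Specific granules follow in myelocytes and gelatinase granules later still, so transcripts of their contents mark cells past the promyelocyte. The transcription factor C/EBPε is required in mice for specific granule proteins. Leukaemia oncogenes such as PML-RARa and MLL-AF9 are known for holding myeloid cells at immature stages. Within the set, Ltf encodes the iron-binding lactoferrin, Lcn2 the siderophore-binding lipocalin 2, Camp the cathelicidin precursor and Ngp a granule protein of a related family. Mmp8 is neutrophil collagenase and Mmp9 is gelatinase B, which macrophages also make. S100a8 and S100a9 encode the subunits of calprotectin, Cd177 a surface and granule glycoprotein, and Pglyrp1 a peptidoglycan recognition protein. Ltf, Camp, Ngp and Mmp8 lie on mouse chromosome 9, Lcn2 and Mmp9 on chromosome 2, S100a8 and S100a9 on chromosome 3, and Cd177 and Pglyrp1 on chromosome 7, per RefSeq.

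The DNA before the start of 4 of these genes is shown because they took different courses below: Camp and Ngp were lower in KO libraries of several contexts, Ltf was far lower in transduced cells than in NT cells, and Mmp8 was higher in KO libraries. The sequences are from RefSeq (GRCm38.p6), each from 250 bases before the RefSeq start up to the first start that GENCODE annotates. Ltf lies at chr9:111019042-111019270 on the plus strand, Camp at chr9:109849618-109849706 on the minus strand, Ngp at chr9:110419558-110419746 on the plus strand and Mmp8 at chr9:7558179-7558428 on the plus strand. Capitals mark matches to TTNNGNAA, the core of C/EBP sites, on either strand.
Ltf: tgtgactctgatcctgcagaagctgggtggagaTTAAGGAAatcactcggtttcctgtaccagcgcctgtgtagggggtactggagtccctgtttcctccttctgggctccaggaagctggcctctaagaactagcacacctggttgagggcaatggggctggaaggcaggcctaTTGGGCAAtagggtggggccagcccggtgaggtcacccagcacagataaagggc
Camp: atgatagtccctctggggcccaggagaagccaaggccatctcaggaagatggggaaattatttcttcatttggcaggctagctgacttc
Ngp: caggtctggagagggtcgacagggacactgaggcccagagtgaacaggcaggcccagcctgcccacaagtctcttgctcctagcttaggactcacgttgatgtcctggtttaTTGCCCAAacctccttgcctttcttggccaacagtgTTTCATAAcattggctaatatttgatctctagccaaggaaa
Mmp8: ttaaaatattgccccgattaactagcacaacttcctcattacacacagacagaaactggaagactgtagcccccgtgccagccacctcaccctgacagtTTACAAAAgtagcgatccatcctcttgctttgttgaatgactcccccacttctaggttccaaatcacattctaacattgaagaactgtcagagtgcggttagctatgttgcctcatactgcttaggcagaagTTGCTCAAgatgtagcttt
A promoter was matched for 9 of the 10 genes, all but Mmp9. Over the full 250 bases, 7 of the 9 held TTNNGNAA, as did 36.9% of 27025 mouse promoters of that length. Camp and Pglyrp1 held no match, and Ngp held 3. GAGGAA, the core of PU.1 sites, was present in 6 of the 9 against 23.1% of all promoters, and TGANTCA, an AP-1 site, in 0 against 6.9%; both strands were searched, and the motifs were counted separately where they overlap. A match describes letters and not binding, and no measure of binding was used here.

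Values below are normalised read counts per transcript as deposited. The libraries held 4226751 to 6998223 recovered reads. Rnf2, the gene of Ring1b, stood at 856, 771, 767 and 802 in the KO libraries of HOXA9, PML-RARa, MLL-AF9 and NT, against 896, 990.4, 769.8 and 666 in their WT libraries. Because the whole transcript was counted, parts left after deletion can still give reads, and these values do not check the KO label. Reads at Ring1, labelled as knocked out, were present in every library, at 23.8 to 77.8 in KO libraries and 109 to 191 in WT libraries. In bulk RNA, fewer cells of a type and less RNA per cell cannot be told apart.

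The first question was how far the late genes of each transduced context differed from NT in the Ring1b WT libraries. In the WT libraries no gene of the set stood 2-fold above NT in any transduced context. In HOXA9 cells 2 of 10 were at least 2-fold lower than in NT cells (Ltf and Mmp9). In PML-RARa cells 4 were lower (Ltf, Camp, Mmp9 and Cd177), and in MLL-AF9 cells 4 were lower (Ltf, Lcn2, Mmp8 and Mmp9). Of all transcripts that reached 20 in the higher of both libraries, the share 2-fold lower than NT was 7.45% for HOXA9, 8.43% for PML-RARa and 10.9% for MLL-AF9. The shares 2-fold higher were 11.7%, 12.5% and 8.77% in the same order. The median log2 ratio over the 10 genes was -0.48 for HOXA9, -0.79 for PML-RARa and -0.86 for MLL-AF9, against -0.08, -0.07 and -0.02 over the 10599 transcripts tested, those whose mean over the libraries reached 20. There is 1 library per group and no test of these ratios. Their intervals cover counting error only.

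**Figure D1:**
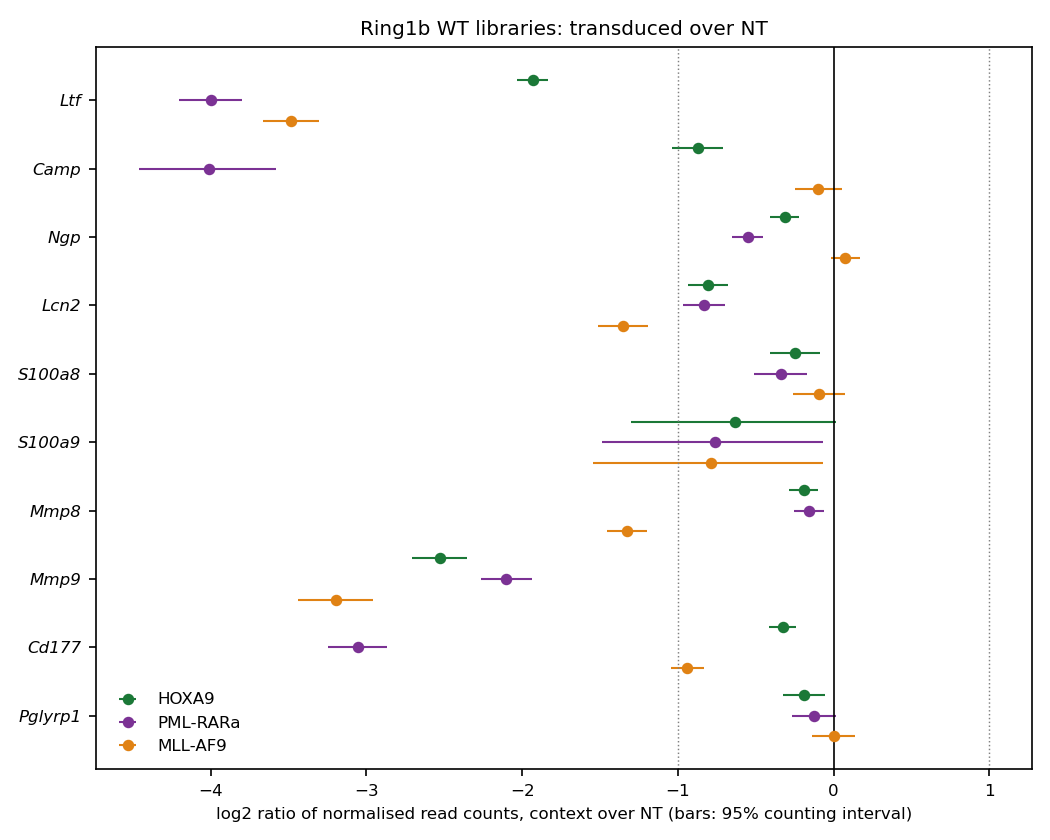
Points show the log2 ratio of normalised read counts of each transduced Ring1b WT library over the NT Ring1b WT library, with 95% counting intervals as bars; dotted lines mark 2-fold. Ltf and Mmp9 lay beyond 2-fold below NT in all 3 contexts, Camp and Cd177 in PML-RARa alone, and Pglyrp1 near 0 in each.

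Ltf and Mmp9 were at least 2-fold lower in all 3 transduced contexts. All 3 ratios of a gene have the same NT WT library as denominator, so they are not independent. Ltf stood at 863, 206 and 294 in HOXA9, PML-RARa and MLL-AF9 WT cells, against 3289 in NT WT cells. It was 16-fold lower in PML-RARa than in NT (ratio 0.0626, 95% interval 0.0543 to 0.0718) and 11.2-fold lower in MLL-AF9 (ratio 0.0895, 0.0790 to 0.101). Lactoferrin is a specific granule protein, and its order across contexts was NT, HOXA9, MLL-AF9 and PML-RARa. Mmp9 stood at 263, 354 and 166 in HOXA9, PML-RARa and MLL-AF9 WT cells, against 1519 in NT WT cells. MLL-AF9 cells were the lowest in Mmp9, 9.14-fold under NT.

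Camp and Cd177 were more than 2-fold lower than NT in PML-RARa cells and in no other transduced context. Camp stood at 395, 45.0 and 676 in HOXA9, PML-RARa and MLL-AF9 WT cells, against 723 in NT WT cells, so the PML-RARa value was 16.1-fold under NT and MLL-AF9 was within counting error of it. Cd177 stood at 1636, 247 and 1068 in the same contexts, against 2050.1 in NT, and was 8.30-fold lower in PML-RARa. The context lowest in both genes was thus not the one lowest in Mmp9. Mmp8 and Lcn2 were instead lowest in MLL-AF9 cells. Mmp8 stood at 1523, 1559.7 and 696, against 1742 in NT, and Lcn2 at 646, 633 and 443, against 1129 in NT.

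Ngp, S100a8, S100a9 and Pglyrp1 stayed within 2-fold of NT in all 3 contexts. Ngp stood at 1406, 1191 and 1839 in HOXA9, PML-RARa and MLL-AF9 WT cells, against 1747 in NT WT cells. Pglyrp1 stood at 697, 728 and 794, against 794 in NT. Their values across these contexts differed less than those of the genes above. Ngp, whose product is related to that of Camp, had a ratio over NT of 0.682 in PML-RARa cells, where Camp had 0.0622. In that PML-RARa WT library Ngp had 1.02 recovered reads per base of transcript and Camp 0.0620. Whether a ceiling on dense transcripts narrowed the Ngp ratio was not tested.

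Whether contexts differed was tested over both genotypes with limma, F test over 3 context terms, taking the KO and WT libraries of a context together. None of the 10 genes passed an adjusted p of 0.05, which 2.19% of the 10599 transcripts did. At an unadjusted p under 0.05, 3 genes passed with limma and 4 with edgeR, against 2063 and 2161 of the 10599 transcripts. After adjustment edgeR also called 0 of the genes, against 315 of all transcripts. DESeq2 called 4 (Ltf, Camp, Ngp and Cd177), against 1599 of all transcripts. Camp had the widest span between contexts, 5.39 on the log2 scale (limma adjusted p = 0.079). The log2 difference of PML-RARa minus NT was -4.87 ± 0.73 (SE, limma adjusted p = 0.19). Of all transcripts, 2.21% passed that test for HOXA9, 0.0189% for PML-RARa and 2.87% for MLL-AF9 against NT, and none of the 10 genes did. For Ltf the span was 3.45 (limma adjusted p = 0.20) and for Cd177 2.90 (limma adjusted p = 0.18), each with PML-RARa lowest. At the other end Pglyrp1 spanned 0.36 and Mmp8 0.38, against a median of 0.58 over all transcripts tested. These spans average both genotypes, so opposite context differences in KO and WT cells cancel. Mmp8 in MLL-AF9 stood below NT in the WT libraries (696 against 1742) and above NT in the KO libraries (4108 against 2281).

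**Figure D2:**
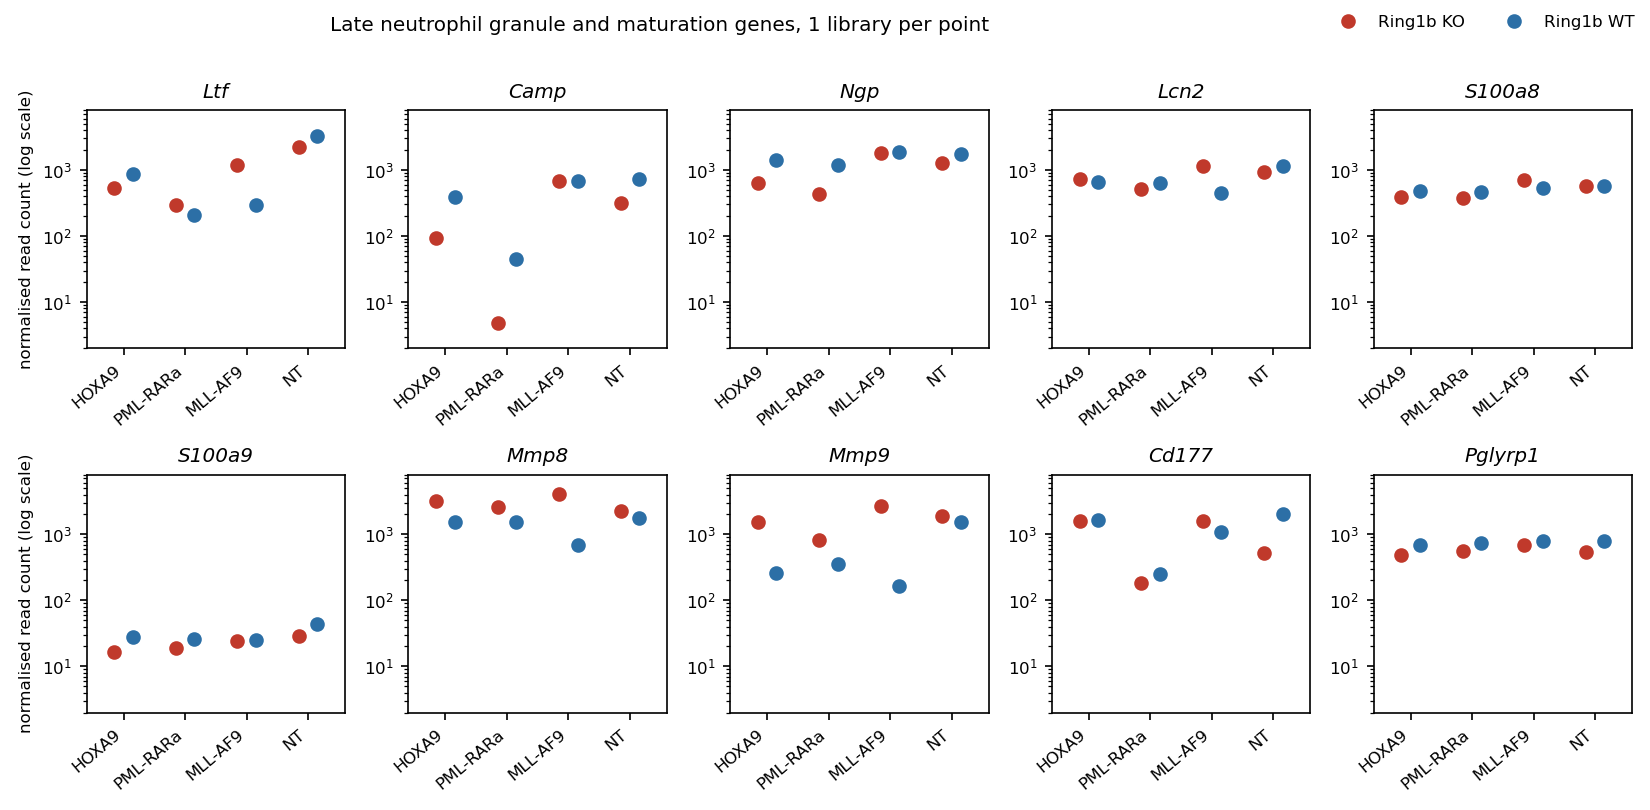
Each panel plots the normalised read count (log axis) of 1 gene in the 8 libraries, with Ring1b KO in red left of Ring1b WT in blue in each context. Mmp8 is higher in KO in all 4 contexts, Camp drops to 4.76 in PML-RARa KO cells, and Ltf is highest in NT cells of both genotypes.

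The second question was how KO and WT cells differed in each context. Mmp8 and Mmp9 had higher values in the KO library of every context, within 2-fold in NT and with the widest ratios in MLL-AF9, although neither passed the test over contexts with limma or edgeR given below. Camp and Ngp had lower values in KO libraries of HOXA9, PML-RARa and NT and ratios near 1 in MLL-AF9. Within MLL-AF9, 4 of 10 genes were at least 2-fold higher in the KO library (Ltf, Lcn2, Mmp8 and Mmp9) and 0 lower. In HOXA9 2 were higher (Mmp8 and Mmp9) and 2 lower (Camp and Ngp), but with libraries scaled to equal totals Mmp8 had a log2 ratio of 0.93, under 2-fold, which leaves 1 higher. In PML-RARa 1 was higher (Mmp9) and 2 lower (Camp and Ngp), and in NT 0 were higher and 2 lower (Camp and Cd177). The shares of all transcripts at least 2-fold higher were 9.13% in HOXA9, 9.06% in PML-RARa, 14.6% in MLL-AF9 and 13.8% in NT. The shares at least 2-fold lower were 6.39%, 13.7%, 16% and 8.76% in the same order. The median log2 ratio of the 10 genes was -0.42 in HOXA9, -0.33 in PML-RARa, 0.47 in MLL-AF9 and -0.51 in NT, against 0.01, -0.09, -0.10 and 0.03 over all transcripts tested.

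**Figure D3:**
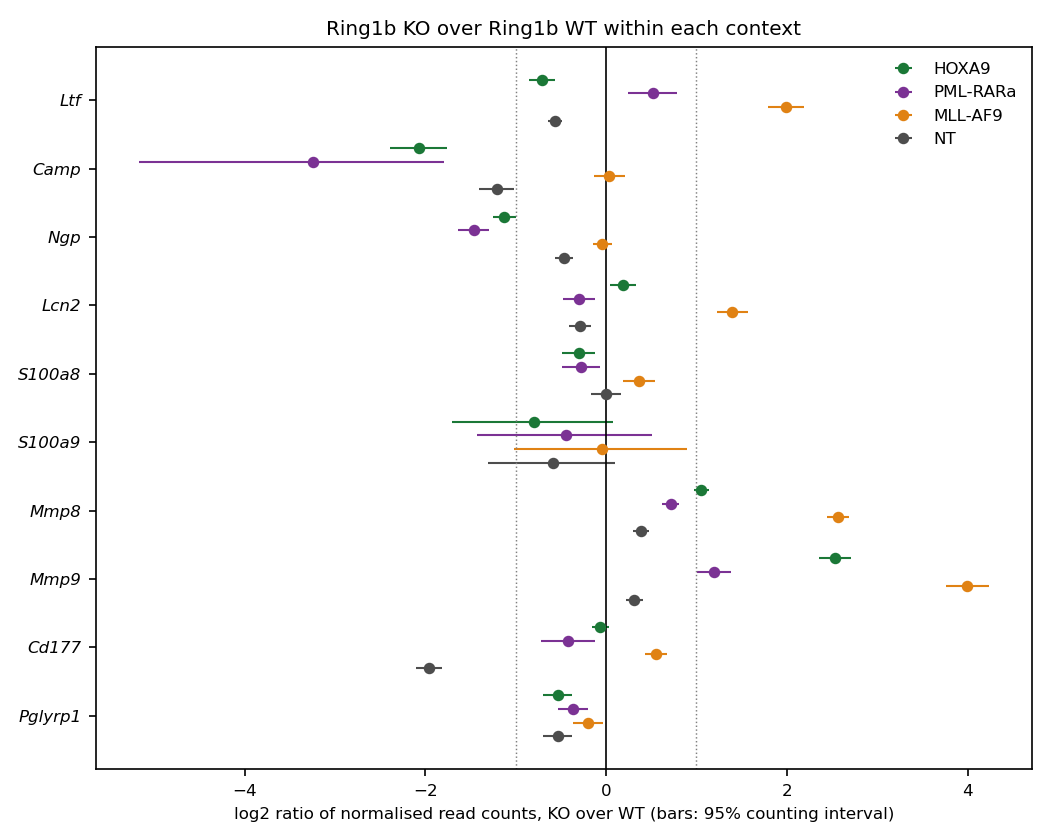
Points show the log2 ratio of Ring1b KO over Ring1b WT in each context, with 95% counting intervals as bars and dotted lines at 2-fold. Mmp8 and Mmp9 lie right of 0 in all contexts and farthest in MLL-AF9, Camp and Ngp lie left of 0 in HOXA9, PML-RARa and NT, and Cd177 lies beyond 2-fold in NT alone.

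Mmp9 showed the widest KO over WT ratios of the set in HOXA9 and MLL-AF9, but not in PML-RARa or NT. It stood at 1519, 810.5, 2658 and 1885 in the KO libraries of HOXA9, PML-RARa, MLL-AF9 and NT, against 263, 354, 166 and 1519 in the WT libraries. The ratio was 16 in MLL-AF9 (95% counting interval 13.6 to 18.9), 5.77 in HOXA9, 2.29 in PML-RARa and 1.24 in NT. The KO values of HOXA9 and MLL-AF9 cells were level with or above the NT WT value, and KO and WT values overlap only through that library. Averaged over the 4 contexts, the log2 ratio came to 2.0 ± 0.64 (SE; limma adjusted p = 0.093), higher in 4 of 4 contexts.

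Mmp8 was the gene whose 4 KO libraries all lay above the 4 WT libraries, which 8.28% of transcripts tested also did. It stood at 3159, 2565, 4108 and 2281 in the KO libraries of HOXA9, PML-RARa, MLL-AF9 and NT, against 1523, 1559.7, 696 and 1742 in the WT libraries. The MLL-AF9 ratio was 5.90 (5.42 to 6.43), and the averaged log2 ratio was 1.18 ± 0.39 (limma adjusted p = 0.0998, higher in 4 of 4 contexts).

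Camp and Ngp, which encode granule proteins of related families, had the lowest KO over WT ratios in the HOXA9 and PML-RARa contexts. Camp stood at 94.1, 4.76, 692 and 313 in the KO libraries of HOXA9, PML-RARa, MLL-AF9 and NT, against 395, 45.0, 676 and 723 in the WT libraries. In PML-RARa KO cells that is 4 reads against 47, a 9.45-fold lower value (ratio 0.106, 0.0277 to 0.289). The MLL-AF9 ratio was 1.02 (0.909 to 1.15). The mean log2 ratio of Camp was -1.56 ± 0.52 (limma adjusted p = 0.10, lower in 3 of 4 contexts). Ngp stood at 644, 432, 1787 and 1264.5 in the KO libraries, against 1406, 1191, 1839 and 1747 in the WT libraries, and its mean log2 ratio was -0.77 ± 0.27 (limma adjusted p = 0.11, lower in 4 of 4, but 0.06 in MLL-AF9 with ratios centred on the median transcript). For both genes the largest fold was in PML-RARa and the smallest in MLL-AF9.

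Ltf and Lcn2, the iron-handling proteins, had ratios on either side of 1, depending on the context. Ltf stood at 528, 294, 1169 and 2222.5 in the KO libraries of HOXA9, PML-RARa, MLL-AF9 and NT, against 863, 206, 294 and 3289 in the WT libraries. The Ltf ratio was 3.97 in MLL-AF9 (3.47 to 4.56) and 1.43 in PML-RARa, but 0.612 in HOXA9 and 0.676 in NT. Lcn2 stood at 738, 517, 1166 and 926 in KO libraries, against 646, 633, 443 and 1129 in WT libraries. Its ratio was 2.64 in MLL-AF9 (2.34 to 2.97) and between 0.815 and 1.14 elsewhere. Without the MLL-AF9 pair the mean log2 ratio turned to -0.25 for Ltf and -0.13 for Lcn2, against 0.31 ± 0.50 (limma adjusted p = 0.68) and 0.25 ± 0.33 (limma adjusted p = 0.60) over the 4 contexts.

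Cd177 was 2-fold or more lower in KO cells of the NT context and of no other. It stood at 1565, 184, 1570.3 and 528 in the KO libraries of HOXA9, PML-RARa, MLL-AF9 and NT, against 1636, 247, 1068 and 2050.1 in the WT libraries, a 3.88-fold lower value in NT (ratio 0.257, 0.234 to 0.283). The ratios in transduced cells lay between 0.747 and 1.47. The test of NT against the 3 transduced contexts gave a log2 difference of -1.98 ± 0.49, with a limma adjusted p = 0.82. No transcript passed that test with limma (0 of 10599, 573 at an unadjusted p under 0.05) or edgeR (0, and 580 unadjusted). DESeq2 called 64, Cd177 among them (DESeq2 adjusted p = 0.027), and no other gene of the set.

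S100a8, S100a9 and Pglyrp1 stayed within 2-fold in every context. S100a8 stood at 395, 377, 697 and 577 in the KO libraries of HOXA9, PML-RARa, MLL-AF9 and NT, against 487, 456, 541 and 577 in the WT libraries. Its mean log2 ratio was -0.05 ± 0.16 (limma adjusted p = 0.82), and its sign was positive, at 0.01 to 0.03, with edgeR, with DESeq2 and without the HOXA9 or the PML-RARa pair. Pglyrp1 stood at 480.5, 565, 693 and 548 in KO libraries, against 697, 728, 794 and 794 in WT libraries. All 4 KO values of Pglyrp1 lay below all 4 WT values, as they did for 12.6% of transcripts tested, and the mean log2 ratio was -0.41 ± 0.12 (limma adjusted p = 0.077).

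S100a9 was measured poorly. Its values were 16.3, 19.0, 24.6 and 29.1 in the KO libraries, against 28.2, 25.8, 25.4 and 43.8 in the WT libraries, or 16 to 28 reads against 24 to 53. RefSeq lists 2 curated transcripts of S100a9 and the tables hold 1 of them. On the scale of value per kb of transcript S100a9 averaged 51.1 and its partner S100a8 averaged 1056, so the calprotectin pair cannot be compared by level. The mean log2 ratio was -0.45 ± 0.15 (limma adjusted p = 0.11).

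None of the 10 genes passed an adjusted p of 0.05 for KO over WT across the 4 contexts with limma, which 13.9% of the 10599 transcripts did (6.40% higher and 7.48% lower). At an unadjusted p under 0.05 limma had 6 of the 10 (Camp, Ngp, S100a9, Mmp8, Mmp9 and Pglyrp1), against 4023 of the 10599 transcripts. edgeR likewise called 0 of them after adjustment, against 21.1% of all transcripts. Unadjusted, edgeR had 5 of the 10, against 4228 of the 10599 transcripts. DESeq2 called 4 after adjustment (Camp, Ngp, Mmp8 and Mmp9), against 3130 of the 10599. The contexts are the only replicates in this test, so a gene whose size differs between contexts has a wide error. Whether the libraries came from separate animals is not given, and p-values measure the spread between these samples.

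The read density of these transcripts bears on the ratios. Across all transcripts with a known length, 402 of 18873 exceed 1 read per base in some library and 1 exceeds 2. Of the 10 genes 7 exceed 1, up to 1.73 for Ngp and 1.49 for Lcn2. S100a8 ranged from 0.652 to 1.44 reads per base and Pglyrp1 from 0.684 to 1.38, whereas Mmp9 reached 0.614 and Cd177 0.913. The 402 dense transcripts had a median log2 KO over WT ratio of 0.07 in HOXA9, 0.17 in PML-RARa, 0.28 in MLL-AF9 and 0.25 in NT. The S100a8 ratio of 1.29 in MLL-AF9 came from 511 reads in each library, divided by size factors of 0.733 in KO and 0.944 in WT. Whether a ceiling compressed the ratios of these genes was not tested.

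**Figure D4:**
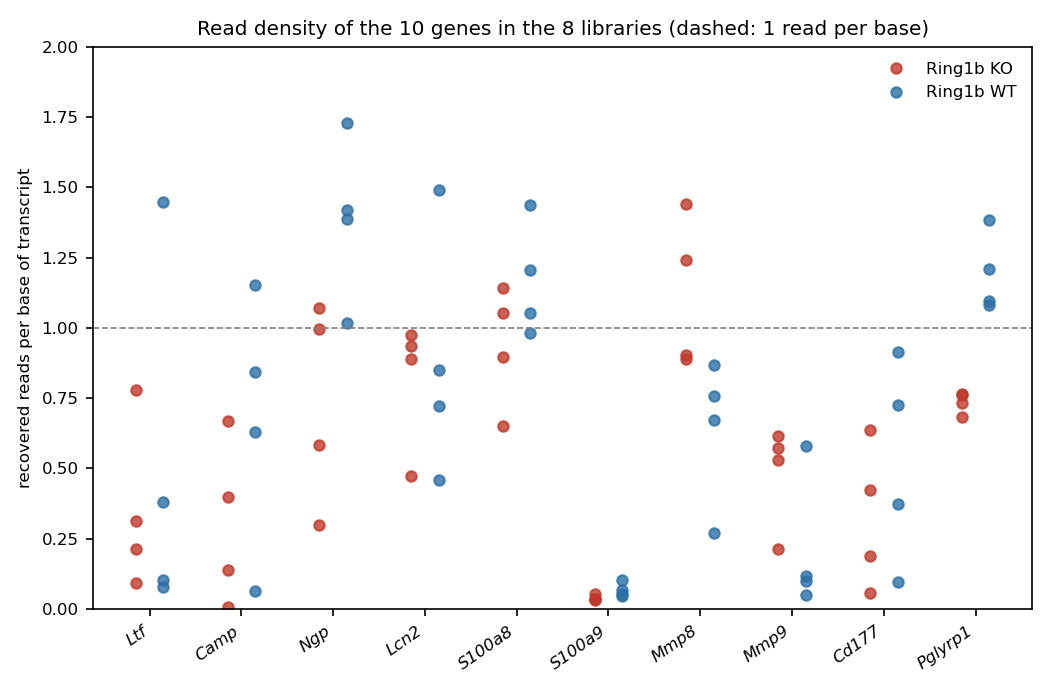
Recovered reads per base of transcript for each gene, with the 4 Ring1b KO libraries in red left of the 4 Ring1b WT libraries in blue. Ngp, S100a8 and Pglyrp1 in WT lie near or above the dashed line at 1 read per base, S100a9 stays at or below 0.102, and Mmp9 spans 0.0494 to 0.614.

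Other genes of the late programme were then read against all transcripts tested, of which limma called 6.40% higher and 7.48% lower in KO cells. The limma calls below rest on all 4 pairs: without any 1 pair limma called 0 to 26 transcripts in all (0 without HOXA9, PML-RARa or MLL-AF9, 26 without NT). Of 42 symbols listed as late granule and maturation genes outside the set, 36 were found and 35 of their transcripts tested. Padi4, the enzyme that citrullinates histones in neutrophils, fell (-1.01 ± 0.12, limma adjusted p = 0.035), 0 rose, and the other 34 did not pass with limma. Of the 35, 13 had an unadjusted limma p under 0.05, against 4023 of all 10599 transcripts tested. edgeR, which called 21.1% of all transcripts, called 3 of the 35 higher (Itgb2, Clec4d and Alox5ap) and 2 lower (Padi4 and Trem3). Padi4 stood at 738, 602, 734 and 828 in the KO libraries of HOXA9, PML-RARa, MLL-AF9 and NT, against 1606, 1289.9, 1586 and 1371 in the WT libraries. The most abundant were the integrin Itgb2 (0.50 ± 0.12, limma adjusted p = 0.053), Adam8 (1.05 ± 0.45, limma adjusted p = 0.16) and Alox5 (0.72 ± 0.22, limma adjusted p = 0.086). The list's median log2 ratio was 0.18, that of the 10 genes -0.23 and that of all transcripts tested -0.03. In the test of context differences Retnlg, a resistin-like neutrophil product (limma adjusted p = 0.045), and Stfa2, a stefin (limma adjusted p = 0.024), passed. Retnlg stood at 54.3, 10.7, 38.2 and 428 in the KO libraries of HOXA9, PML-RARa, MLL-AF9 and NT, against 132, 16.3, 22.2 and 459.99 in the WT libraries, so both NT values lay above all transduced ones.

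Of 11 tested primary granule genes limma called 1 lower, a share near the 7.48% of all transcripts. Prss57, a serine protease, fell (-2.25 ± 0.49, limma adjusted p = 0.049) and 0 rose with limma. Of the 11, 7 had an unadjusted limma p under 0.05, against 4023 of all 10599 transcripts tested. edgeR also called Ctsc, cathepsin C, higher (0.75, edgeR adjusted p = 0.040). The list's median log2 ratio was -0.23, as for the late genes. Mpo, myeloperoxidase, stood at 3028, 1115, 3046 and 1065.0 in the KO libraries of HOXA9, PML-RARa, MLL-AF9 and NT, against 3511, 3410.3, 4588 and 3801 in the WT libraries (limma adjusted p = 0.085). Of 5 tested transcripts of NADPH oxidase subunits, which form the respiratory burst enzyme, 0 rose and 0 fell with limma. Among these 5, 2 had an unadjusted limma p under 0.05, against the same 4023 of 10599, while edgeR called Cyba and Ncf4 higher. Cybb, its catalytic subunit, had log2 ratios of 1.22, 3.69, 3.28 and -1.14 in HOXA9, PML-RARa, MLL-AF9 and NT.

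The regulators of granulocyte maturation included 3 that fell of 11 tested with limma, where 7.48% of all transcripts fell, and 0 that rose, where 6.40% did. Of the 11, 8 had an unadjusted limma p under 0.05, against 4023 of all 10599 transcripts tested. edgeR called 4 lower, Gfi1 in addition, and 1 higher, Cebpb. The 3 that fell with limma were Cebpa (-0.72 ± 0.13, limma adjusted p = 0.040), which directs progenitors to the granulocyte fate, Cebpd (-0.95 ± 0.19, limma adjusted p = 0.045) and Klf5 (-1.47 ± 0.15, limma adjusted p = 0.035). The list's median was -0.95. Spi1, the gene of PU.1, had 0.26 ± 0.13 (limma adjusted p = 0.21) and Cebpb 0.30 ± 0.11 (limma adjusted p = 0.11). Cebpe, named for its role and after its values were seen, stood at 399, 352, 731 and 126 in the KO libraries of HOXA9, PML-RARa, MLL-AF9 and NT, against 477, 973, 810.04 and 839.7 in the WT libraries. Its mean log2 ratio was -1.15 ± 0.49 (limma adjusted p = 0.16), with the larger falls in NT and PML-RARa.

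Of 12 tested transcripts of other matrix metalloproteinases and their inhibitors, 4 rose, 0 fell and 8 did not pass with limma, where 6.40% of all transcripts rose, with a median log2 ratio of 1.01. Those that rose were the macrophage elastase Mmp12 (2.90 ± 0.41, limma adjusted p = 0.035), the collagenase Mmp13 (3.11 ± 0.46, limma adjusted p = 0.036), the gelatinase Mmp2 (3.10 ± 0.32, limma adjusted p = 0.035) and Mmp27 (2.85 ± 0.53, limma adjusted p = 0.041). Mmp12 stood at 2338, 2008, 3604 and 2179.9 in the KO libraries of HOXA9, PML-RARa, MLL-AF9 and NT, against 292, 172, 291 and 792 in the WT libraries. Timp2, an inhibitor of these enzymes, had 1.02 ± 0.24 (limma adjusted p = 0.054, edgeR adjusted p = 0.025). Among 7 tested transcripts of other S100 genes S100a1 (0.64 ± 0.13, limma adjusted p = 0.046) and S100a13 (0.66 ± 0.11, limma adjusted p = 0.037) rose and 0 fell with limma, and edgeR called the same 2. The abundant S100a10 (0.75 ± 0.27), S100a11 (0.35 ± 0.12) and S100a6 (0.68 ± 0.31) did not pass (limma adjusted p = 0.11, 0.11 and 0.18).

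**Figure D5:**
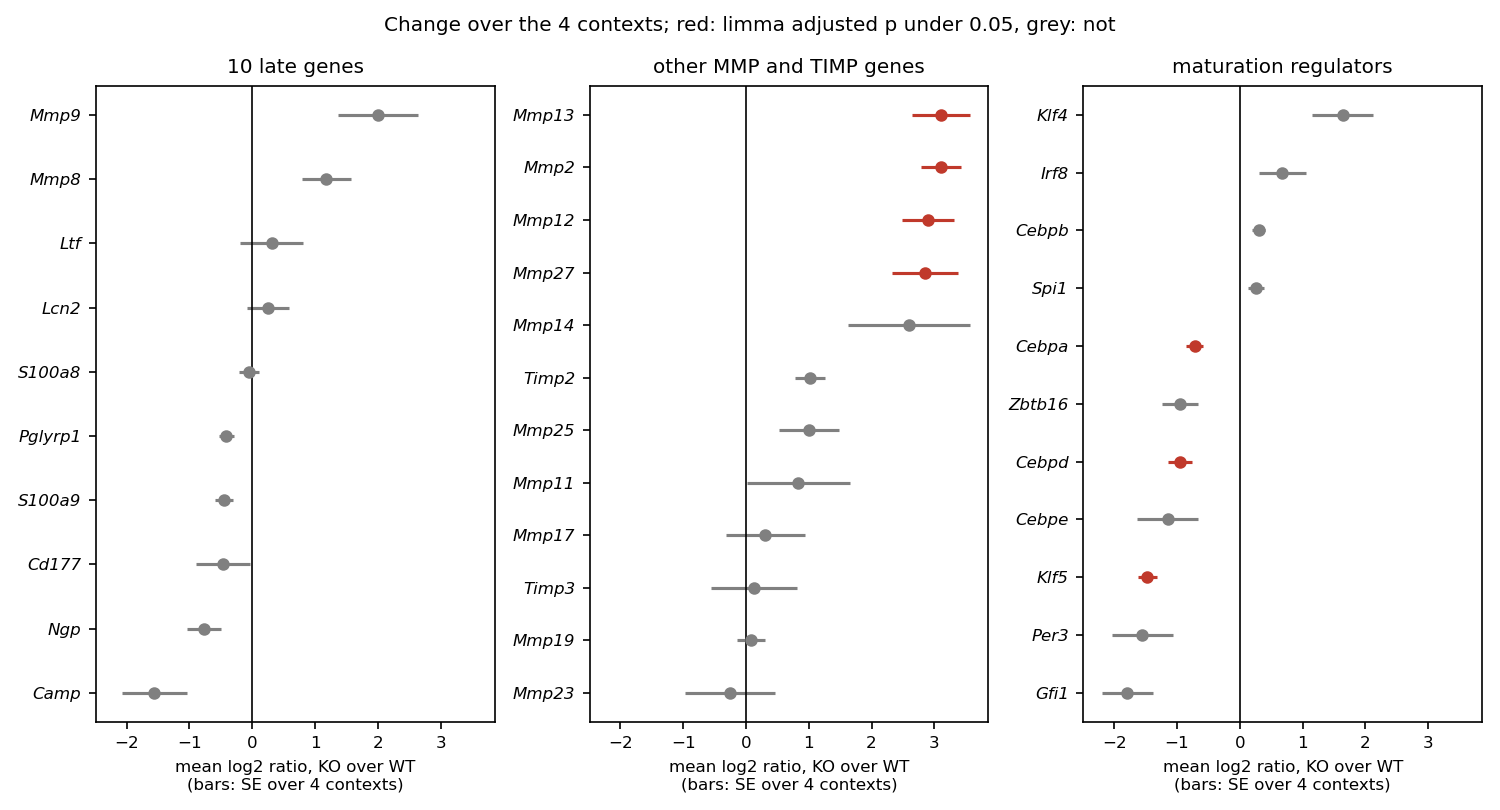
Mean log2 ratio of Ring1b KO over Ring1b WT with its SE over 4 contexts, for the 10 late genes, for other metalloproteinase and inhibitor transcripts and for maturation regulators; red points passed a limma adjusted p of 0.05. The 4 red metalloproteinase points lie above 0, the 3 red regulator points below 0, and none is among the late genes.

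Receptors and partners of the products were tested for 6 transcripts, of which Lrp1, an uptake receptor for lactoferrin and metalloproteinases, rose (2.23 ± 0.45, limma adjusted p = 0.045) and 0 fell. Tlr4, through which calprotectin signals, had 0.61 ± 0.16 (limma adjusted p = 0.069, edgeR adjusted p = 0.036), and Prtn3, the proteinase that CD177 holds at the surface of human neutrophils, had -0.99 ± 0.34 (limma adjusted p = 0.10).

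Markers of other cells moved with genotype and with context. Of 19 tested transcripts of monocyte and macrophage markers 12 rose and 0 fell with limma (6.40% and 7.48% of all transcripts), and their summed value was 12824 to 27639 in KO libraries, against 4635 to 7782 in WT libraries. The ratio of that sum was 3.55 in HOXA9, 2.77 in PML-RARa, 3.82 in MLL-AF9 and 2.35 in NT, so MLL-AF9 had the largest ratio and NT the smallest. Eosinophil markers summed to 393 to 971 in KO libraries, against 1074 to 1834 in WT libraries; of 5 tested, 1 rose (Ccr3) and 2 fell (Epx and Prg3). Mast cell and basophil markers summed to 16863 to 23508 in the PML-RARa and NT libraries and to 2116 to 4881 in those of HOXA9 and MLL-AF9, and 8 of 13 passed the test of context differences, as did 2.19% of all transcripts, while 1 rose and 0 fell in KO cells. Markers of erythroid cells summed to 114 to 1425 in KO libraries and 110 to 944 in WT libraries, and those of B, T and NK cells to 44.0 to 190 in KO and 83.2 to 231 in WT, with Cd3e, Cd8b1, Ebf1 and Klrb1c among those at 3 reads or fewer everywhere. Stem and progenitor markers summed to 1640 to 5930 in KO libraries and 1731 to 4970.0 in WT libraries, and of 10 tested Erg and Myb fell. Gata2, which is also in the mast cell list, made up 30.9% to 82.7% of the stem and progenitor sum, and Gata1 31.1% to 84.2% of the erythroid sum. The part of these cell types in the results was not tested.

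The mean profile of the 10 genes, standardised over the 8 libraries, was 0.84 in MLL-AF9 KO and 0.31 in NT KO, against -0.24 and 0.93 in the WT libraries of those contexts. It was -0.39 in HOXA9 KO and -1.0 in PML-RARa KO, against 0.04 and -0.47 in WT. The transcripts most like it by Pearson correlation over 8 libraries were those of the chitinase-like gene Chi3l1 (0.935), Upf3a (0.924) and Nsfl1c (0.915), and the other 7 of the 10 closest ran down to Twf2 (0.893), with Pbx2, 9430023L20Rik, Pyroxd1, Ceacam10, Lca5 and Znrd1as between. These libraries share contexts and scaling, and the likeness is a description.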

How the data were processed

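mRNA of 8 mouse samples was analysed from 4 deposited tables with 19353 RefSeq transcripts each. The deposited signal is the authors' normalised read count (base mean) per transcript and library, per the file headers. Per the submitters' processing notes, TopHat and DESeq were used with mm9, with no versions stated; the read counter is not given in the sources used here. Libraries were made with TruSeq RNA v2, a kit that does not mark strand, per the labels' protocols.

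Dividing each library by its lowest value gave whole reads for 100.0% of values (tolerance 0.02), with a lowest count of 1 that may stand for 0. Size factors were joint over the 8 libraries (largest relative difference 5.0e-10 from medians of ratios), which lets levels of different contexts be compared. Lengths came from GENCODE M21 through RefSeq identifiers.

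limma (3.58.1, R 4.3.3) was run on log2(value + 1), which understates changes of low genes, two-sided, over 10599 transcripts with a mean of at least 20, with context as a block and Benjamini-Hochberg adjustment. Ratios within a pair have exact binomial intervals at 95% and no test. edgeR (4.0.16) and DESeq2 (1.42.0) on recovered reads, and the other alternatives, are in the closing section; the fits were tested on simulated data. Named genes are the 10, and in other lists those that passed and the 3 most abundant. Members and lists were chosen with earlier results of these data known.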

Additional observations from a re-analysis of the deposited data

How the results depend on the processing

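The number of transcripts called for KO over WT was 1471. It was 354 with no filter on low values, 2235 with edgeR and 3130 with DESeq2, and 0 to 26 without any 1 pair (0 without HOXA9, PML-RARa or MLL-AF9, 26 without NT; 2982 to 3319 at an unadjusted limma p under 0.05), so the calls named in other lists rest on all 4 pairs. For context differences the count was 232, with 1599 by DESeq2 and 65 to 184 without 1 pair. For NT against transduced it was 0, with 64 by DESeq2. Counts of all transcripts 2-fold apart within pairs stayed within 1.5 times under equal totals, a pseudocount of 10 and centring. Of the 10 genes, Mmp8 in HOXA9 lost its 2-fold difference under equal totals (0.93), which takes the count of higher genes there to 1. Cd177 in HOXA9 moved to -0.18 under equal totals, and Ngp in MLL-AF9 to 0.06 with centring.

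For KO over WT of the 10 genes, 100 of 111 alternative values kept sign and side of the threshold and 4 passed it with DESeq2: Camp (DESeq2 adjusted p = 0.013), Ngp (0.036), Mmp8 (0.0038) and Mmp9 (7.51e-04). Leaving out 1 pair, the value ran from -0.25 (without MLL-AF9) to 0.64 for Ltf, from -0.13 (without MLL-AF9) to 0.43 for Lcn2 and from -0.81 to 0.02 (without NT) for Cd177. Signs turned also for S100a8 with edgeR (0.03), DESeq2 (0.01) and without HOXA9 (0.03) or PML-RARa (0.02), with -0.19 without MLL-AF9 at the low end; the cause was not tested. For NT against transduced leaving out 1 pair gave -0.19 (without PML-RARa) to 1.32 for Camp, -0.05 (without HOXA9; -0.03 without PML-RARa) to 0.29 for S100a8 and -0.34 to 0.01 (without MLL-AF9) for S100a9, and Cd177 passed with DESeq2 (adjusted p = 0.027). With a pseudocount of 10 the Camp ratio in PML-RARa was -1.90 on the log2 scale, against -3.24. The labels carry no replicate numbers; the KO and WT libraries were paired by context, and without that block 999 transcripts were called. The fit restricted to transcripts up to 0.5 reads per base keeps S100a9 alone of the 10 genes and gives no value for the others. Low depth limits S100a9 and Camp in PML-RARa.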
